A study of Mus musculus with 12 samples.

Results

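The genes of the proteasome were followed across 8 RNA libraries of mouse 2-cell embryos. The members were all genes whose symbol begins with Psma, Psmb, Psmc, Psmd, Psme, Psmf or Psmg followed by a digit, pseudogenes left out, and that were listed in both deposited tables. The rule found 50 of the 17012 genes that both tables hold. Of these, 2 encode no part of the proteasome and only carry its name, Psmc3ip, a cofactor of meiotic recombination, and Psme3ip1, a protein that binds Psme3. The other 48 comprised 18 genes of the 20S core (8 Psma, 10 Psmb), 20 genes of the 19S particle and its assembly (Psmc, Psmd), 5 activators (Psme), the inhibitor Psmf1 and 4 chaperones of core assembly (Psmg). Psmb8, an immunoproteasome subunit, was listed in the immunoprecipitation table only.

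The proteasome degrades proteins that carry a ubiquitin chain. Its 20S core is a barrel with alpha rings at the ends, which gate the channel, and beta rings inside, which hold the catalytic sites. The 19S particle caps the barrel, binds and unfolds the substrate with its ATPase base and removes the ubiquitin with its lid, and the Psme activators can bind the same ends in its place. In the early embryo the ubiquitin-proteasome system is known to clear maternal proteins around the time the embryo's own genome is switched on.

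The series concerns Eif1ad3, a relative of the translation initiation factor Eif1a, and holds a knockdown and an RNA immunoprecipitation. In the knockdown, 2 control libraries (genotype WT) were set against 2 libraries labelled Eif1ad3_KD. The design text has CF1 1-cell embryos receiving RfxCas13d mRNA, with the guide RNA in the knockdown and without it in the control, whereas the treatment protocol has oocytes receiving Cas13d protein with morpholino oligos. In the immunoprecipitation, all 4 libraries used here came from embryos labelled Eif1ad3_OE, which had received in vitro transcribed mRNA of His-tagged Eif1ad3 at 200 ng/uL as zygotes and therefore hold the tagged protein on top of the embryo's own. Lysates, 200 cells per replicate, were recovered on magnetic beads with an anti-His antibody (His, 2 libraries) or with IgG as the negative control (IgG, 2 libraries). Each group had replicates A and B. How many embryos a knockdown or control library pooled, and whether A and B were separate collections, is not given in the sources used here, so p-values measure only the spread between these libraries, which may be technical.

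Values are CPM, the share of its library's reads that a gene took, scaled to a common total. CPM is not divided by transcript length, so it was compared between libraries for a gene and not between genes. The knockdown and control libraries totalled 18173916 to 27902514 reads and those of the immunoprecipitation 4678563 to 8364126, and 3 reads, the limit that a count of 0 allows, correspond to 0.108 to 0.165 CPM and 0.359 to 0.641 CPM. The targeted transcript, Eif1ad3, stood at 839 and 663 CPM in control A and B and at 277 and 377 CPM in knockdown A and B. All 6 markers of 2-cell embryos were detected in all 4 libraries of the knockdown table, with a summed level of 3294 and 3312 CPM in control A and B and of 2402 and 2807 CPM in knockdown A and B, below both controls. Their sum was 220 and 236 CPM in the His libraries and 1.69 and 449 CPM in the IgG libraries A and B. Usp17la alone read 421 CPM in IgG B, and 121 and 130 CPM in His A and B. Each of the other markers read less in IgG B than in both His libraries. The 5 oocyte markers summed to 7965 and 8205 CPM in His and 3023 and 3735 CPM in IgG. Zp3 alone of these went the other way, at 122 and 131 CPM in His and 328 and 208 CPM in IgG. Markers of cumulus and granulosa cells, of which 1 of 6 was listed in the knockdown table and 4 in the other, summed to at most 2.02 CPM in any library. The listed sperm markers summed to 1.08 and 7.20 CPM in His and 47.4 and 54.3 CPM in IgG, and the listed blood marker stood at 52.6 and 64.8 CPM in His and 0 in IgG. The part of these markers in the differences between groups was not tested.

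At most 2 of the 48 had no read in any control, knockdown or His library, whereas 20 in IgG A and 15 in IgG B had none. Of all 19390 genes listed for the immunoprecipitation, 12574 had no read in IgG A and 12217 in IgG B, a larger share than among the members. In control embryos the summed level was 1483 and 1535 CPM for the 20S core, 2072 and 2162 CPM for the 19S particle and 917 and 1039 CPM for the activators. In the knockdown the same sums were 2076 and 1796 CPM, 2348 and 1763 CPM, and 846 and 932 CPM. The core sum was thus above both controls in both knockdown libraries, while the 19S sum lay above both controls in knockdown A and below both in knockdown B. The ratio of knockdown to control means was 1.28 for the core, 0.971 for the 19S particle and 0.909 for the activators. Genes with many reads weigh most in such sums. The median difference per gene, in log2(CPM + 1), was 0.05 for the core, 0.13 for the 19S particle and -0.15 for the activators. Over all genes tested it was 0.02. Both knockdown libraries lay above both controls for 4 of 17 core genes tested (23.5%), against 18.1% of all genes.

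**Figure D1:**
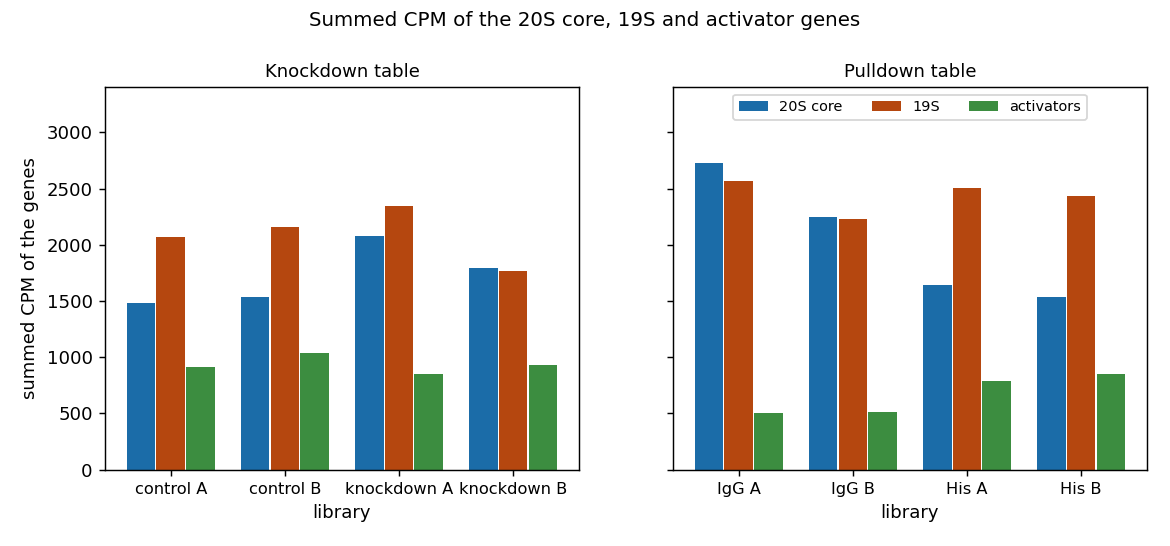
Bars give the summed CPM (y axis, from 0) of the 18 genes of the 20S core, the 20 genes of the 19S particle and the 5 activators in each library (x axis), with no error bars because each bar is 1 library. The 2 panels are separate tables that were normalized separately; the core is highest in the IgG libraries of its table, at 2725 and 2249 CPM.

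The bases in front of the genes were examined because the factor Nfe2l1, which raises proteasome genes when proteasome activity is short, binds a known motif there. Promoter windows from 250 bases before to 50 bases after the start (RefSeq, GRCm38.p6) were matched by symbol for 40 of the 48 members. The motif searched was TGANNNNGC on both strands, and at least 1 match was present in 22 of these 40 genes (55.0%) against 45.0% of 27025 genes. Within the set it was present in 10 of 14 core genes (71.4%), 8 of 17 genes of the 19S particle (47.1%) and 2 of 5 activators. Such short, loose words occur often, and a match is a description of the letters, not a binding site. The windows below are shown for Psmb5, the member with the smallest p in the knockdown. Those of Psma6 and Psmd5 are shown because both passed the test in the immunoprecipitation, Psmd5 in a direction fixed by the filter given below. They are given 5′ to 3′ on the gene's strand, and capitals mark the match, which lies on the opposite strand in Psma6 and Psmd5 and so appears as its reverse complement there.
Psmb5, chr14:54618014-54618062, minus strand: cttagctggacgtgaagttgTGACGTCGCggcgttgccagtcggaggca
Psma6, chr12:55398713-55398761, plus strand: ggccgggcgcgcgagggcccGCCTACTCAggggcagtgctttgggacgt
Psmd5, chr2:34871087-34871135, minus strand: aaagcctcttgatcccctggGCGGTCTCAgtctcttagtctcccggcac
The matches shown begin 47 bases before the start of Psmb5, 92 before a start of Psma6 and 153 before the start of Psmd5. Psmb5 held another match, after its start, and Psma6 held another in front of its other listed start. GGGCGG, the GC box, was found on either strand in 23 of the 40 genes (57.5%) against 38.2% of all genes, and CCAAT, the NF-Y box, in 14 (35.0%) against 41.1%.

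The comparison of knockdown with control embryos asks how the proteasome transcripts respond to loss of Eif1ad3. None of the 47 members tested passed limma's test at an adjusted p of 0.05, the smallest adjusted p being 0.859, and the share of all 13332 genes called was 0%. At an unadjusted p under 0.05 there was 1 member, against 726 of all genes. The count tests on recovered reads likewise called 0 members, where edgeR called 0 and DESeq2 15 of all genes. Both knockdown libraries lay above both controls for 10 members (21.3%), against 18.1% of all genes, and below both for 6 (12.8%), against 18.4%. In RNA of whole embryos, fewer cells and less RNA per cell cannot be told apart. The median difference between knockdown and control was 0.15 on the log2(CPM + 1) scale over the members and 0.02 over all genes tested. In edgeR the median log2 fold change was 0.29 over the members and 0.09 over all genes, and in DESeq2 0.30 and 0.09.

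Among the catalytic subunits of the core, Psmb5, which carries the chymotrypsin-like site, read 51.9 and 59.4 CPM in control A and B and 31.6 and 16.8 CPM in knockdown A and B. Both knockdown values lay below both controls. The difference was -1.23 (SE 0.45) on the log2(CPM + 1) scale (adjusted p = 0.859 in limma), and Psmb5 was the member with an unadjusted p under 0.05. Psmb6, the caspase-like subunit, read 75.9 and 84.3 CPM in control and 124 and 51.7 CPM in knockdown A and B, so that the knockdown libraries fell on opposite sides of the controls. Psmb7, the trypsin-like subunit, read 40.3 and 53.2 CPM in control and 38.9 and 50.6 CPM in knockdown, and the groups overlapped. The 3 catalytic genes of the constitutive core therefore showed 3 different arrangements of the same 4 libraries.

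The subunits that replace these in immune cells and thymus were read at low levels. Psmb9, of the immunoproteasome, stood at 7.40 and 2.17 CPM in control and 6.56 and 1.05 CPM in knockdown. Psmb10, also of the immunoproteasome, stood at 4.72 and 2.33 CPM in control and 3.08 and 4.02 CPM in knockdown. Psmb11, of the thymoproteasome, stood at 5.12 and 0.763 CPM in control and at 1.22 CPM and 0 in knockdown A and B. For all 3 the groups overlapped. Psma8, the alpha subunit of the testis, was at 11 reads or fewer in each control and at 7 and 14 reads in knockdown A and B, 0.251 and 0.770 CPM, too low to be tested.

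The alpha ring had the higher median of the 2 rings, 0.38 on the log2 scale over 7 genes tested, against -0.03 over 10 beta genes. Psma6 read 97.7 and 102 CPM in control and 124 and 216 CPM in knockdown, a difference of 0.71 (SE 0.38) on the log2 scale with an adjusted p of 0.859 in limma. Psma1 read 133 and 175 CPM in control and 216 and 235 CPM in knockdown. Psma2 read 244 and 242 CPM in control and 366 and 274 CPM in knockdown. These were the 3 alpha genes with both knockdown libraries above both controls, 42.9% of those tested against 18.1% of all genes. None had both below, against 18.4% of all genes, and the ring was not tested as a set. Psma7, which Psma8 replaces in testis, read 45.6 and 28.1 CPM in control and 145 and 29.4 CPM in knockdown A and B. Knockdown A alone lay above the controls, and the difference of 0.86 (SE 0.70) on the log2 scale was -0.28 without that library.

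In the beta ring, the noncatalytic Psmb2 read 135 and 131 CPM in control and 391 and 156 CPM in knockdown A and B. Both knockdown values were above both controls, but knockdown B lay close to them, and the difference of 0.89 (SE 0.46) on the log2 scale did not pass, at an adjusted p of 0.859 in limma. Psmb3, also noncatalytic, read 33.5 and 31.4 CPM in control and 78.7 and 13.9 CPM in knockdown A and B, on opposite sides of the controls. Psmb1, a further noncatalytic subunit, read 216 and 213 CPM in control and 167 and 211 CPM in knockdown.

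**Figure D2:**
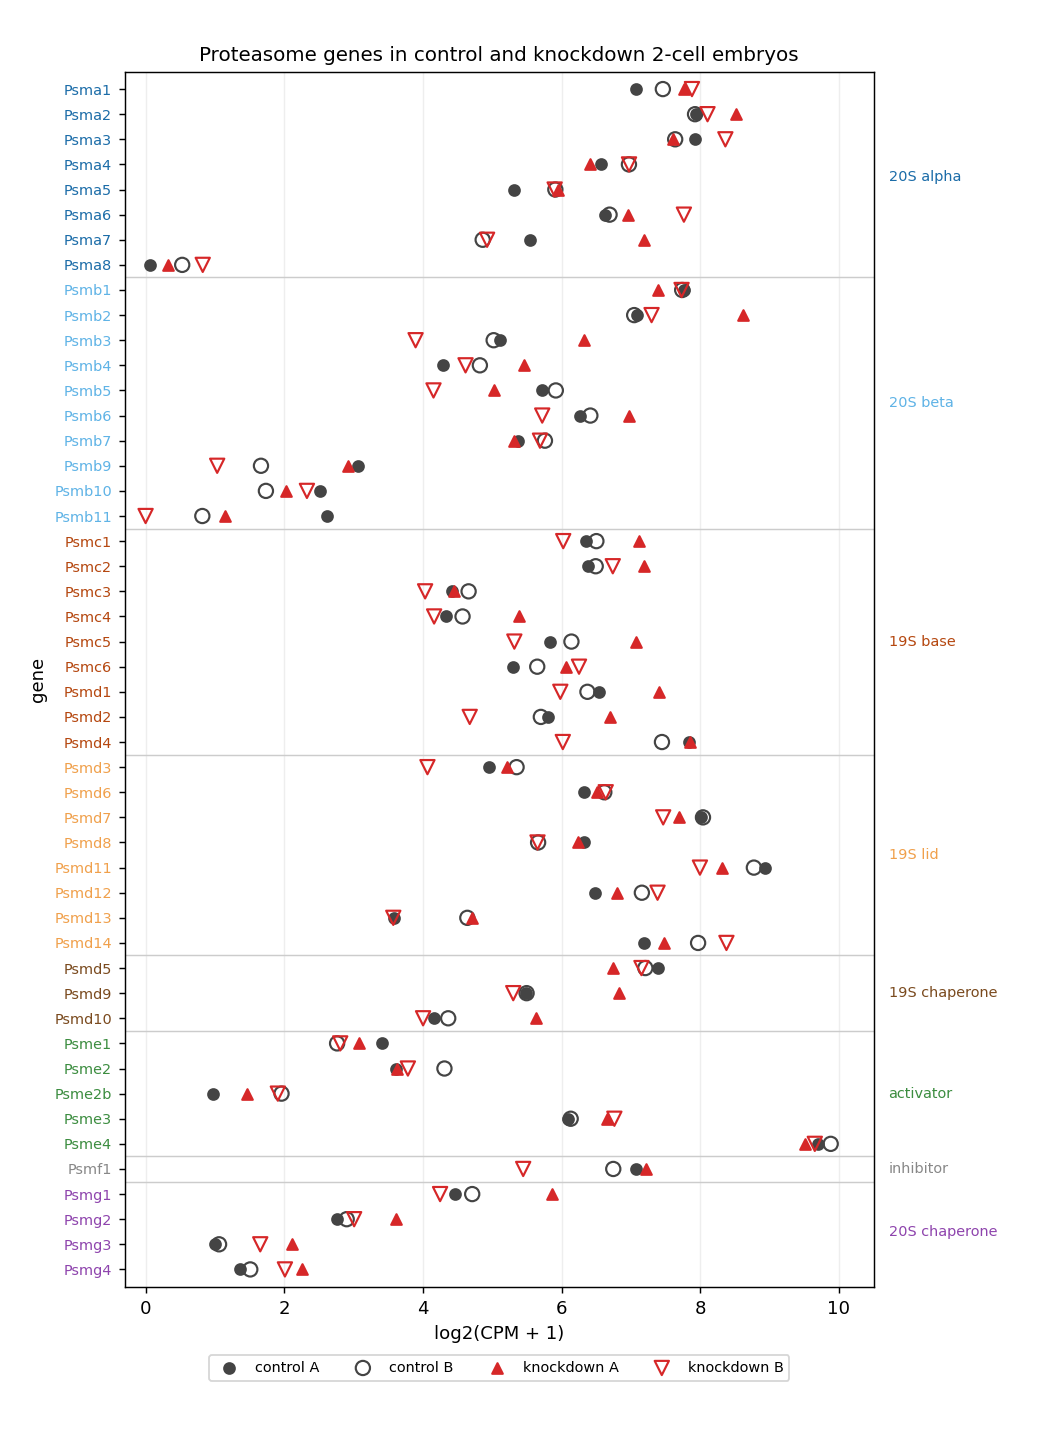
Each row is 1 of the 48 genes and each point 1 library, on a log2(CPM + 1) axis; black circles are control A (filled) and B (open), red triangles knockdown A (filled) and B (open). Both red points lie below both black ones for Psmb5 and Psmd11, while for Psmb3, Psmd10 and Psmg1 the red points lie on either side.

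In the 19S base, the 6 ATPases (Psmc1 to Psmc6) thread the substrate into the core. Psmc2 read 82.7 and 89.0 CPM in control and 145 and 106 CPM in knockdown, and Psmc6 read 38.4 and 49.2 CPM in control and 65.6 and 75.2 CPM in knockdown. These 2 were the only genes of the base with both knockdown libraries above both controls (22.2%, against 18.1% of all genes), and neither passed the test. The ubiquitin receptor Psmd4 read 227 and 174 CPM in control and 229 and 63.8 CPM in knockdown A and B. Knockdown B alone lay below the controls, and the difference of -0.71 (SE 0.56) on the log2 scale was 0.21 without that library. Psmd2, the scaffold that also receives ubiquitin, read 55.0 and 51.0 CPM in control and 102 and 24.5 CPM in knockdown A and B.

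In the lid, Psmd11, a structural subunit, read 486 and 437 CPM in control and 318 and 254 CPM in knockdown. Both knockdown values lay below both controls, by -0.70 (SE 0.31) on the log2 scale, with an adjusted p of 0.859 in limma. Psmd7, the partner of the deubiquitinase, read 256 and 262 CPM in control and 206 and 176 CPM in knockdown, again below both. The deubiquitinase itself, Psmd14, read 144 and 250 CPM in control and 176 and 332 CPM in knockdown, and the groups overlapped. No lid gene had both knockdown libraries above both controls, against 18.1% of all genes. Of the 8 lid genes, 25.0% had both below, against 18.4% of all genes.

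The chaperones that build the base were split between the libraries. Psmd10 (gankyrin) read 16.9 and 19.6 CPM in control and 48.3 and 15.0 CPM in knockdown A and B. Psmd9 read 44.0 and 44.1 CPM in control and 112 and 38.5 CPM in knockdown A and B. Both were above the controls in knockdown A and below them in knockdown B, whereas Psmd5 read 167 and 147 CPM in control and 106 and 141 CPM in knockdown, below both. Of the chaperones of the core, Psmg1 read 21.1 and 25.2 CPM in control and 56.9 and 18 CPM in knockdown A and B. The other 3 had few reads and both knockdown libraries above both controls, an arrangement found for 18.1% of all genes. Psmg2 read 5.76 and 6.47 CPM in control and 11.3 and 7.04 CPM in knockdown, Psmg3 1.00 and 1.08 CPM against 3.33 and 2.15 CPM, and Psmg4 1.56 and 1.85 CPM against 3.80 and 3.03 CPM. None of the 7 chaperone genes passed the test.

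Among the activators, Psme4 (PA200), which is known for its part in histone turnover, gave the most reads of all members in control embryos. It read 828 and 942 CPM in control and 725 and 804 CPM in knockdown, a difference of -0.21 (SE 0.30) on the log2 scale. Psme3 (PA28 gamma), the nuclear activator, read 67.2 and 69.1 CPM in control and 99.7 and 107 CPM in knockdown, a difference of 0.60 (SE 0.35) with an adjusted p of 0.859 in limma. The groups did not overlap for either gene, and the 2 lay in opposite directions. Psme1 (PA28 alpha) read 9.68 and 5.78 CPM in control and 7.42 and 6.00 CPM in knockdown. Its partner Psme2 (PA28 beta) read 11.3 and 18.8 CPM in control and 11.4 and 12.8 CPM in knockdown. Psme2b, a near-identical copy of Psme2, read 0.960 and 2.89 CPM in control and 1.76 and 2.75 CPM in knockdown, and how reads were divided between these copies is uncertain. The inhibitor Psmf1 (PI31) read 134 and 106 CPM in control and 147 and 42.6 CPM in knockdown A and B.

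The knockdown replicates lay far apart for many members. Knockdown A lay above both controls and knockdown B below both for 13 of 47 members (27.7%), against 19.1% of all genes tested. They were Psmb3 and Psmb6 of the core, Psmc1, Psmc4, Psmc5, Psmd1, Psmd2 and Psmd4 of the base, Psmd13 of the lid, the chaperones Psmd9, Psmd10 and Psmg1, and Psmf1. The reverse was seen for Psma3 and Psma4 (4.26%, against 8.21% of all genes). The median of knockdown A minus B was 0.46 on the log2 scale over the members, with 1.01 over the beta genes, 0.84 over the 19S genes and -0.12 over the alpha genes, against 0.30 over all genes. The median SD between replicates was 0.43 in the knockdown and 0.17 in the control over the members, and 0.49 and 0.24 over all genes. The median difference from the control mean was 0.34 in knockdown A and -0.18 in knockdown B over the members, and 0.14 and -0.17 over all genes.

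Other measures also differed between the knockdown libraries. The 5 markers of oocytes summed to 6650 CPM in knockdown A and 3748 CPM in knockdown B, against 3781 and 3220 CPM in control A and B, with none of them at 0. In knockdown A, Zp3 (75.0 CPM) lay below both controls and the other markers above both. In knockdown B, Zp3 (60.6 CPM), Gdf9 (91.2 CPM) and Nlrp5 (65.0 CPM) lay below both controls, and Bmp15 (1055 CPM) and Oosp1 (2475 CPM) above both. The totals were 27902514 reads in knockdown A and 18173916 in knockdown B. The part of either in the values of the members was not tested. Without knockdown A, 6 of 46 members passed limma's test against 15.1% of all genes, with Psmd4, Psmd2, Psmd11, Psmb5 and Psmf1 lower and Psma6 higher. Without knockdown B, 4 of 47 passed against 3.23% of all genes, with Psma7, Psmb2, Psmd9 and Psmb3 higher. In each the lone knockdown library was assumed to vary as the controls did.

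**Figure D3:**
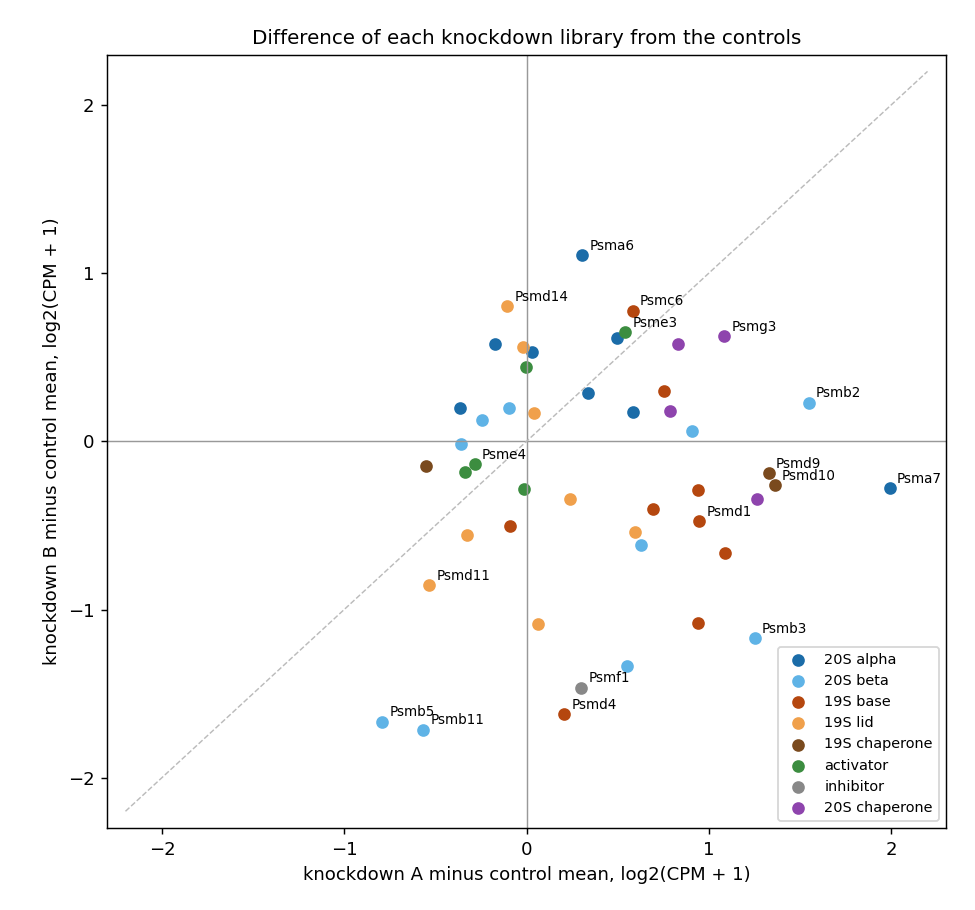
Each point is 1 gene, with knockdown A minus the control mean on the x axis and knockdown B minus the control mean on the y axis, both in log2(CPM + 1), coloured by class; the dashed line marks equal values. Genes at lower right, such as Psma7, Psmb3, Psmd9 and Psmd10, are high in A and not in B, and Psmb5 and Psmd11 at lower left are low in both.

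Of 32 other genes of the pathway (ubiquitin genes, shuttle factors, regulators of proteasome genes), 31 were tested in the knockdown and none passed, with 3 at an unadjusted p under 0.05 and a median of 0.09 on the log2 scale. Txnl1, a thioredoxin that binds the 19S particle, read 28.8 and 26.3 CPM in control and 68.0 and 50.2 CPM in knockdown. Its difference was 1.06 (SE 0.40) on the log2 scale, with an adjusted p of 0.859 in limma. Uchl5, a deubiquitinase of the 19S particle, read 17.2 and 21.0 CPM in control and 24.2 and 64.2 CPM in knockdown, a difference of 1.02 (SE 0.54). Nfe2l1, the factor whose motif was searched above, read 24.9 and 28.6 CPM in control and 17.5 and 12.3 CPM in knockdown, a difference of -0.82 (SE 0.46). Vcp, the segregase that extracts proteins for degradation, read 38.4 and 95.6 CPM in control and 42.8 and 28.9 CPM in knockdown, a difference of -0.77 (SE 0.51). Both knockdown libraries were outside the control values for Txnl1, Uchl5 and Nfe2l1, and none of the 4 passed the test.

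The comparison of His with IgG asks which transcripts were recovered with tagged Eif1ad3 beyond the bead background. Of 44 members tested, 12 were higher in His by limma's test at an adjusted p of 0.05 (27.3%), against 35.7% of all 11232 genes, and 1 was lower (2.27%), against 0.917%. Both His libraries lay above both IgG libraries for 17 members (38.6%), against 54.1% of all genes, and below both for 10 (22.7%), against 9.06%. The median difference was 1.25 on the log2(CPM + 1) scale over the members and 2.01 over all genes. With genes at 0 in both IgG libraries set to the 3-read limit, the medians of the log2 ratio of means were 0.37 and 1.64. Quantile normalization and edgeR's test on recovered reads each called 0 members and 0 of all genes. At an unadjusted p under 0.05 they had 8 and 13 members, against 2339 and 4592 of all 11232 genes. DESeq2 called 15 members higher and 5 lower (45.5%), against 49.1% of all genes, and leaving out either His library left 0 of 33 members tested, against 0.0889% and 0.0888% of all genes. With no filter on low values the order of members and all genes turned, with 25.5% of members and 20.8% of all genes called in either direction and medians of 1.31 and 1.24.

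Members with few or no reads in IgG made up most of the calls. Of the 12 members called higher, 10 passed the filter of 1 CPM in 2 libraries through the His libraries alone, which holds for 25.0% of the members tested and 38.2% of all genes, so they had to differ. The other 2, Psma4 and Psma6, had 8 and 6 reads over both IgG libraries. They reached 1 CPM in IgG B alone and in IgG A alone, so they too needed a His library to pass the filter. In all, 8 of the 44 members (18.2%) were at 0 in both IgG libraries, against 28.2% of all genes, and 12 (27.3%) in 1 of them, against 30.8%. Psma1, for example, read 37.9 and 35.5 CPM in His and 0 and 166 CPM in IgG A and B, and Psmb1 read 42.9 and 43.7 CPM in His and 0 and 406 CPM in IgG A and B. The median SD between replicates was 0.17 in His and 0.59 in IgG over the members.

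Psmb2 was the member called lower, with 241 and 206 CPM in His and 542 and 686 CPM in IgG. The difference was -1.45 (SE 0.31) on the log2 scale with an adjusted p of 0.0415 in limma, which lies near the threshold. The adjusted p was 0.0585 with a pseudocount of 5, 0.0654 with no filter, 0.0518 with a mean of at least 5 CPM required, 0.0762 with no trend and 0.257 after quantile normalization, all in limma, and 0.0922 in edgeR's quasi-likelihood test. It was 0.0298 with a pseudocount of 0.1, 0.0290 with median rescaling and 0.0456 with library weights, all in limma, and 1.13e-07 in DESeq2. Further members had both His libraries below both IgG libraries without passing limma's test, and DESeq2 called 4 of them lower (Psmd1, Psmb5, Psmb4 and Psme4). The scaffold Psmd1 read 9.45 and 18.9 CPM in His and 84.6 and 78.4 CPM in IgG, a difference of -2.51 (SE 0.90, adjusted p = 0.130 in limma, 0.0478 in limma with no trend and 0.00136 in DESeq2). The catalytic Psmb5 read 19.97 and 16.9 CPM in His and 87.6 and 58.6 CPM in IgG, a difference of -1.91 (SE 0.86, adjusted p = 0.204 in limma and 0.00779 in DESeq2). Psmb4, a noncatalytic beta subunit, read 51.9 and 46.6 CPM in His and 186 and 131 CPM in IgG, a difference of -1.65 (SE 0.71, adjusted p = 0.188 in limma and 0.00811 in DESeq2). The other 6 were Psma2, Psma7, Psmd4, Psmd7, Psme4 and Psmg1. Psma7 read 205 and 191 CPM in His and 348 and 268 CPM in IgG, and Psmd4 read 459 and 416 CPM in His and 1051 and 563 CPM in IgG.

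Of the core, 4 of 16 genes tested (25.0%), Psma4, Psma6, Psmb9 and Psmb11, were called higher in His, against 35.7% of all genes. Psmb9 and Psmb11 were below 1 CPM in both IgG libraries and passed the filter through His alone, so that their direction was fixed by the filter. Psma6 read 46.5 and 43.8 CPM in His and 1.01 CPM and 0 in IgG A and B, a difference of 5.02 (SE 0.64) on the log2 scale with an adjusted p of 0.0131 in limma. Psma4, an alpha subunit like Psma6, read 22.4 and 45.8 CPM in His and 0.338 and 1.28 CPM in IgG, a difference of 4.24 (SE 0.69, adjusted p = 0.0214 in limma). Psmb9 read 5.86 and 8.21 CPM in His and 0 in both IgG libraries, at least 24.7-fold higher against a limit of 3 reads over both IgG libraries together. Psmb11 had 158 reads over both His libraries and 2 over both IgG libraries, a CPM ratio of 51.5 (95% exact counting interval 14.0 to 429). Psmb10 was read in 1 of the 4 libraries, at 11.2 CPM in His A, and was not tested. Psmb8 had 6 reads in His A and none elsewhere, and Psma8 had no read in any of the 4. Psmb6 read 377 and 328 CPM in His and 328 and 0.214 CPM in IgG A and B, and Psmb7 read 17.3 and 10.4 CPM in His and 0 and 38.7 CPM in IgG A and B, so that both catalytic genes overlapped between the groups.

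Of the 19S particle, 5 of 19 genes tested were called higher, Psmc2, Psmc4, Psmd13 and the base chaperones Psmd5 and Psmd10, and none lower, against 35.7% and 0.917% of all genes. All 5 were below 1 CPM in both IgG libraries and passed the filter through His alone, so their direction was fixed by the filter and the values are given as a description. Psmd10 read 66.7 and 68.8 CPM in His and 0 in both IgG libraries, at least 239-fold higher against the limit of 3 reads. Psmd5 had 1171 reads over both His libraries and 2 over both IgG libraries, a CPM ratio of 381 (95% exact counting interval 105 to 3152). The remaining base chaperone, Psmd9, read 380 and 486 CPM in His and 169 and 588 CPM in IgG A and B and overlapped. The ATPase Psmc4 read 50.1 and 32.8 CPM in His and 0 in both IgG libraries, at least 147-fold higher. Psmc2, the other ATPase called, had 388 reads in His and 1 in IgG, a CPM ratio of 253 (95% exact counting interval 45.1 to 10006). The lid subunit Psmd13 read 16.9 and 5.68 CPM in His and 0 in IgG, at least 40.4-fold higher. The deubiquitinase Psmd14 read 9.09 and 2.02 CPM in His and 0 in IgG, at least 19.97-fold higher, and did not pass the test. Its adjusted p was 0.0776 in limma and 0.00149 in DESeq2. Psmd14 also passed the filter through His alone, so its direction was fixed as well. Psmd8, a lid subunit, read 217 and 172 CPM in His and 37.1 and 41.0 CPM in IgG, a difference of 2.28 (SE 0.70) on the log2 scale. It did not pass, at an adjusted p of 0.0922 in limma. The adjusted p was 0.0314 in limma with no trend and 0.00145 in DESeq2, and no other setting that kept all 4 libraries called it. The receptor Psmd2 read 152 and 121 CPM in His and 41.7 and 174 CPM in IgG A and B.

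**Figure D4:**
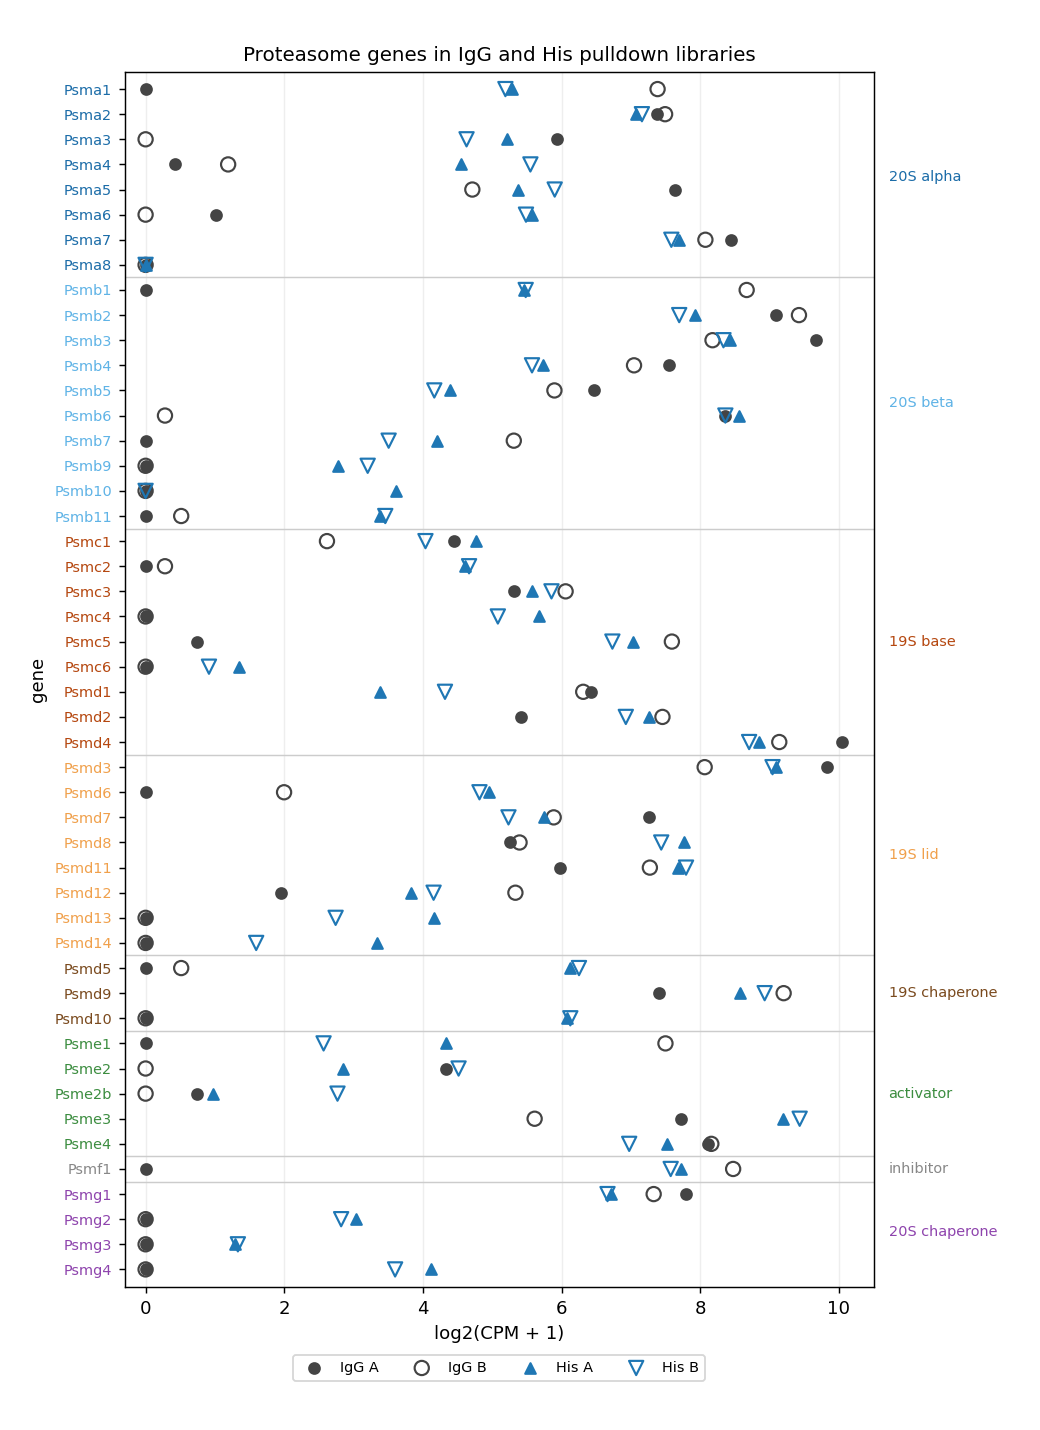
Each row is 1 of the 48 genes and each point 1 library, on a log2(CPM + 1) axis; black circles are IgG A (filled) and B (open), blue triangles His A (filled) and B (open). The blue points lie close together for most genes, while the black ones are often far apart, as for Psma1 and Psmb1, or both at 0, as for Psmd10 and Psmc4.

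No activator passed limma's test in the immunoprecipitation, at an adjusted or an unadjusted p of 0.05, where 35.7% of all genes were higher and 0.917% lower. Psme3 read 582 and 690 CPM in His and 210 and 47.9 CPM in IgG, with both His libraries above both IgG libraries and a difference of 2.65 (SE 0.89) on the log2 scale (adjusted p = 0.114 in limma). Psme4 read 182 and 125 CPM in His and 275 and 285 CPM in IgG, below both, a difference of -0.89 (SE 0.48, adjusted p = 0.275 in limma and 0.0416 in DESeq2). As in the knockdown, these 2 activators lay in opposite directions, and the difference between the genes was not tested. Psme1 read 19.1 and 4.93 CPM in His and 0 and 180 CPM in IgG A and B. Psme2 read 6.22 and 21.9 CPM in His and 19.1 CPM and 0 in IgG A and B. Psme2b read 0.956 and 5.81 CPM in His and 0.675 CPM and 0 in IgG, and was not tested. The inhibitor Psmf1 read 211 and 189 CPM in His and 0 and 355 CPM in IgG A and B.

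Of the chaperones of the core, Psmg2, Psmg3 and Psmg4 were at 0 in both IgG libraries and passed the filter through His alone, so that their calls, too, had a direction fixed by the filter. Psmg4 read 16.4 and 11.1 CPM in His, at least 48.8-fold higher, Psmg2 7.17 and 6.06 CPM, at least 23.4-fold higher, and Psmg3 1.43 and 1.52 CPM, at least 5.21-fold higher. Psmg1 went the other way without passing, with 104 and 100 CPM in His and 220 and 160 CPM in IgG. Over the classes, the summed level of the core was 1642 and 1532 CPM in His and 2725 and 2249 CPM in IgG, that of the 19S particle 2500 and 2429 CPM and 2570 and 2229 CPM, and that of the activators 790 and 848 CPM and 504 and 513 CPM. The ratio of His to IgG means was 0.638 for the core, 1.03 for the 19S particle and 1.61 for the activators, and the activator sum in His was mostly Psme3. The median log2(CPM + 1) differences per gene were 1.17 (9 of 16 core genes positive), 1.11 and 0.61 in the same order, against 2.01 over all genes. With genes at 0 in both IgG libraries set to the 3-read limit, the median log2 ratios were -0.49, 0.59 and -0.24, against 1.64.

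Psme3ip1, which is no part of the proteasome, read 75.9 and 96.0 CPM in His and 1.01 and 0.855 CPM in IgG, a difference of 5.48 (SE 0.67) with an adjusted p of 0.0123 in limma. It had 10 reads over both IgG libraries and reached 1 CPM in IgG A alone, so it needed a His library to pass the filter. Of the other pathway genes, 29 were tested and 5 were higher in His (Ubb, Usp14, Ufd1, Ubqln4 and Pomp, named after their values were seen) and none lower, against 35.7% and 0.917% of all genes, with a median of 1.87 on the log2 scale. All but Ubb were at 0 in both IgG libraries and passed the filter through His alone. Pomp, the maturation factor of the core, read 98.8 and 101 CPM in His and 0 in both IgG libraries, at least 353-fold higher. Uba1, the main ubiquitin-activating enzyme, read 392 and 629 CPM in His and 153 and 0.427 CPM in IgG A and B, a difference of 5.07 (SE 2.70, adjusted p = 0.272 in limma). Adrm1, a ubiquitin receptor of the 19S particle, read 231 and 253 CPM in His and 541 and 511 CPM in IgG, a difference of -1.12 (SE 0.28, adjusted p = 0.0611 in limma).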

How the data were processed

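The deposited values are CPM, scaled by the authors to a library total. The submitters' processing notes name FastQC, Trim Galore 0.6.7, HISAT2 2.2.1, featureCounts 2.0.1, edgeR and the build GRCm39, with no role or order; the gene annotation is not given in the sources used here. Per the labels' protocols, cDNA was made with the Smart-seq2 v4 kit and libraries with Nextera XT and read as 150 bp pairs. No molecular identifiers were used, so limits and intervals cover counting error only. In every library 100% of the deposited CPM values were whole multiples of 1 read (within 0.01 of a read), which gave back the reads and totals.

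A gene entered a comparison with 1 CPM or more in 2 or more of its 4 libraries. The test was limma's (version 3.58.1, R 4.3.3; lmFit, then eBayes with trend; two-sided) on log2(CPM + 1), adjusted by Benjamini-Hochberg over all genes tested, at 0.05. Log2 differences understate the change of low genes. With 2 libraries a group, an exact permutation test cannot reach 0.05. The tables were normalized separately, so tests stayed within a table. The names of 4 further value columns of the immunoprecipitation table do not decide between input and total RNA; they were not used, and 3 of 5 planned comparisons were not run. Alternatives were other pseudocounts, filters and scalings, no trend, a replicate block, leaving out each library, and, on the reads given back, DESeq2 1.42.0 and edgeR 4.0.16; weighting of libraries was added after seeing the data. The scripts were tested on simulated data. Members and lists were chosen with earlier results of these data known. Genes given with values were the tissue-specific, catalytic, ubiquitin-handling, activator, inhibitor and chaperone genes, the 3 members with the largest difference in each direction (mean of 10 CPM or more), the 2 such pathway genes, and the 3 members with the highest and the 3 with the lowest control mean; other genes given with values were chosen after these were seen. 1 gene that this rule names is not reported here. Promoter windows are RefSeq's for GRCm38.p6, matched by symbol.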

Additional observations from a re-analysis of the deposited data

How the results depend on the processing

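With 2 libraries a group, each result leans on single libraries. In the knockdown, every setting that kept all 4 libraries called 0 members, library weights (added after seeing the data) included. Leaving out 1 library gave 0 to 6 members called (6 is 13.0%, all genes 15.1%) and medians of -0.16 to 0.34 on the log2 scale (all genes -0.16 to 0.14), the lowest without knockdown A. Over the same refits Psmd4 ranged from -1.62 to 0.21, the highest without knockdown B, and Psma7 from -0.28 to 1.99, the lowest without knockdown A. Of 210 values of 14 named genes under the alternatives, 199 kept direction and side of the threshold, and 9 passed it with 1 library left out. For His against IgG, the members called (13 in the main test) were 8 with a mean of at least 5 CPM required (20.5%, all genes 27.0%), 0 after quantile normalization, 0 in edgeR (smallest adjusted p 0.0547), 20 in DESeq2 (45.5%, all genes 49.1%), and 0 to 36 with 1 library left out. Leaving out a His library removed the members that only His had brought past the filter, while Psma4 (4.74 and 3.74 without His A and B) and Psma6 (4.98 and 5.07) stayed in the test and lost their calls. Leaving out an IgG library takes the spread from the His pair alone, whose median SD was 0.17 against 0.59 in IgG, so these counts say nothing about stability: 18 members higher and 9 lower without IgG A (61.4%, all genes 69.1%), and 24 and 12 without IgG B (81.8%, all genes 70.0%). Among members called in both of these fits, the direction turned with the IgG library left out, A or B, for Psmb1 (-3.20 and 5.47), Psmd3 (1.00 and -0.76), Psma1 (-2.15 and 5.24), Psmf1 (-0.82 and 7.65) and Psme1 (-4.05 and 3.45); members not called in both, such as Psmb7 and Psmc5, also had a His level between their IgG libraries. The median of 1.25 (all genes 2.01) became 2.71 (all genes 3.66) with a pseudocount of 0.1, 0.63 (0.94) with a pseudocount of 5, -0.051 (-0.081) after quantile normalization, 0.29 (1.56) in edgeR, 0.040 (1.30) in DESeq2 and 0.50 to 1.72 (0.82 to 2.42) with 1 library left out; the cause was not tested. Of 232 values of 16 genes (Psma4, Psma6, Psmb2, Psmb4, Psmb5, Psmc4, Psmd1, Psmd5, Psmd8, Psmd10, Psme3, Psme4, Psme3ip1, Pomp, Uba1 and Adrm1), 177 kept direction and side of the threshold, 30 (8 genes) lost the call, 25 (8 genes) gained it, and none of these 16 reversed. The replicate block called 13 members for His against IgG (29.5%, all genes 34.7%), 12 of them also called without it and Psmb2 not among them (adjusted p = 0.151 in limma), and 0 in the knockdown. Deviations of samples with the same letter correlated at 0.15 and -0.014 across genes; whether the letters mark shared handling is not given in the sources used here. Depth limits most of all Psma8 and Psmb8, at 14 reads or fewer in any library.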

Other observations

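Members with larger values in the His libraries than in control embryos tended to be the ones that were higher in knockdown A than in knockdown B. Over the 44 members with a test in each table, knockdown A minus B and the His mean minus the control mean, both on the log2(CPM + 1) scale, had a Spearman's rho of 0.65, and over all 10337 such genes it was 0.45. These are correlations across genes, which are not independent replicates, and the tables were normalized separately. Of the 24 members with a His mean above the control mean, 23 (95.8%) were higher in knockdown A than in B, against 79.4% of such genes overall. Of the other 20 members, 8 (40%) were, against 48.6% overall. Psmb3 shows the pattern, at 31.4 to 33.5 CPM in control, 322 to 343 CPM in His, and 78.7 and 13.9 CPM in knockdown A and B. Psmd14 shows its other end, at 144 to 250 CPM in control, 2.02 to 9.09 CPM in His, and 176 and 332 CPM in knockdown A and B. The summed level of the 5 oocyte markers went the same way, at 7965 and 8205 CPM in His, 3781 and 3220 CPM in control, and 6650 and 3748 CPM in knockdown A and B, although Nlrp5, 1 of the 5, was lower in His (73.2 and 62.1 CPM) than in control (169 and 194 CPM) and higher in knockdown A (474 CPM) than in B (65.0 CPM). Their part in the pattern was not tested.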
